A study of Mus musculus with 74 samples.

Results

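Type I interferon response genes were followed in microglia and in the other cells of brains losing myelin. The set held 40 genes, all known as genes that type I interferons raise, taken by symbol from the 49912 genes of the count table. All 40 symbols were present once. They fall by role into 5 signalling and feedback genes, 6 nucleic acid sensors, 4 IFIT genes, 5 OAS genes, 7 other antiviral effectors, 2 guanylate-binding proteins and 11 other members. Mice with no (KO, Trem2 -/-), 1 (Het, Trem2 +/-) or both (WT, Trem2 +/+) working copies of Trem2 ate chow with 0.2% cuprizone or control chow for 5 weeks, labelled acute, or 12 weeks, labelled chronic demyelination. Whole brains were perfused and dissociated, and viable cells were sorted into a Cd11b+ fraction, labelled microglia, and all remaining cells, labelled nonmicroglia. Both fractions of 37 mice were sequenced by a 3' tag method, giving 74 libraries in 12 groups per fraction. Each group of a fraction had 3 mice, except that the Het groups at 12 weeks had 4 on each diet and the WT group on control chow at 12 weeks had 2. The sex was male for 1 mouse of each group and female for the others. The labels give each animal's Trem2 genotype and name no Cre driver or cell type for it, the Cd11b gate also admits other myeloid cells, and the nonmicroglia fraction pools many cell types. The strain and the age of the mice were not given in the labels.

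Type I interferons bind the receptor pair Ifnar1 and Ifnar2 and, through the kinases Jak1 and Tyk2, lead to a complex that holds Stat2 and Irf9 and binds the interferon-stimulated response element (ISRE) in promoters. The genes switched on this way block viral entry, translation and release, sense foreign nucleic acid, and feed back on the pathway itself. In the brain, microglia are a cell type known to carry this response in injury, ageing and demyelination, also without a virus. Cuprizone chelates copper and leads to the death of oligodendrocytes, and Trem2 is a microglial receptor for lipids and debris.

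Promoter sequences of 5 members that pass the test below are shown first, because they differ in how many ISRE cores they hold. They are RefSeq sequences of the GRCm38.p6 assembly and cover the 250 bases before a RefSeq start, 5′ to 3′ on the gene's strand, with matches to the core of the ISRE on either strand in capitals. Matches can overlap, so that adjoining cores read as a longer run of capitals.
Isg15, chr4:156200819-156201068, minus strand: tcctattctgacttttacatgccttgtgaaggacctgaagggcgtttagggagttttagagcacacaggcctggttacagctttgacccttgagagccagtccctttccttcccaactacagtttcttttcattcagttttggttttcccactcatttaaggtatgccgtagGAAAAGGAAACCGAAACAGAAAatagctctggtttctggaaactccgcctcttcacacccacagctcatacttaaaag
Bst2, chr8:71537473-71537722, minus strand: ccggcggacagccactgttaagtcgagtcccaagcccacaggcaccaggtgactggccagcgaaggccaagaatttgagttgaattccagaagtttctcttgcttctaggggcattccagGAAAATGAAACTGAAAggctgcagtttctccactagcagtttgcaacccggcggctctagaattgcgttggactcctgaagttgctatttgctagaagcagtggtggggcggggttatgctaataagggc
Ifit3, chr19:34583279-34583528, plus strand: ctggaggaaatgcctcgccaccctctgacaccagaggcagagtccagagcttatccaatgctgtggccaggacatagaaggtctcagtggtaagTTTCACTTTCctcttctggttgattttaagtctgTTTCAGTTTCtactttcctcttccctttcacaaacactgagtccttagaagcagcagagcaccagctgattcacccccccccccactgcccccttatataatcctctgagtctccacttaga
Slfn5, chr11:82951852-82952101, plus strand: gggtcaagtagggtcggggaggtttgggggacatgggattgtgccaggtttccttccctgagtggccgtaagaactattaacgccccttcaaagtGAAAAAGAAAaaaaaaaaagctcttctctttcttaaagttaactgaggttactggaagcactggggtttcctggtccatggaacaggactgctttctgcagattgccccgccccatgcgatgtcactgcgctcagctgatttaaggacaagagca
Irf7, chr7:141266425-141266674, minus strand: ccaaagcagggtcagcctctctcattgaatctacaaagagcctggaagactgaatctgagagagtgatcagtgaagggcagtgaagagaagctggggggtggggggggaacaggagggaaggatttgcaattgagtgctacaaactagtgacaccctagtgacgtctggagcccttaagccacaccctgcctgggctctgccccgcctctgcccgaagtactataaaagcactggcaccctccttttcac

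The stretch of Isg15 held 3 overlapping cores, those of Bst2 and Ifit3 held 2 each, that of Slfn5 held 1 and that of Irf7 held 0. Of the 40 members, 30 had a promoter in the table, and 18 of these (60.0%) held a core within 250 bases before to 50 bases after a start, compared with 1079 of all 27025 genes (3.99%). The core TTCNNNGAA, the GAS element through which type II interferon acts, was found in 6 of the 30 members (20%) and 9.55% of all genes. A match is a stretch of letters in a window and not a shown binding site. RefSeq starts need not be those of the gene annotation: by the gene coordinates that follow, the Slfn5 stretch lies inside the gene and the Irf7 stretch reaches into its 5′ end. The bases after the RefSeq start were found near the start of an annotated transcript for Isg15, Slfn5 and Irf7. For Bst2 and Ifit3 they were not. On GRCm38, the annotation places Isg15 (ENSMUSG00000035692.6, chromosome 4, 156199424 to 156200818, minus strand), Bst2 (ENSMUSG00000046718.8, chromosome 8, 71534255 to 71537456, minus strand), Ifit3 (ENSMUSG00000074896.3, chromosome 19, 34583531 to 34588731, plus strand), Slfn5 (ENSMUSG00000054404.13, chromosome 11, 82951349 to 82964840, plus strand) and Irf7 (ENSMUSG00000025498.15, chromosome 7, 141262706 to 141266481, minus strand). The other members described most fully are Lgals3bp (ENSMUSG00000033880.11, chromosome 11, 118392751 to 118402092, minus strand), Ifi27l2a (ENSMUSG00000079017.3, chromosome 12, 103442167 to 103443680, minus strand), Ifitm3 (ENSMUSG00000025492.6, chromosome 7, 141009586 to 141010770, minus strand) and Rtp4 (ENSMUSG00000033355.6, chromosome 16, 23520291 to 23614222, plus strand).

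Libraries held 1043961 to 3945694 tag counts in microglia and 1255465 to 3441041 in nonmicroglia. Levels are counts per 1000000 of the library total (CPM), in which 1 count is worth 0.253 to 0.958 CPM in microglia, and carry no gene length, so levels are compared between samples and not between genes. Differences are given on the log2 scale ± standard error (SE), from edgeR's quasi-likelihood test, adjusted by Benjamini-Hochberg over all genes tested, and a gene is said to rise or fall at an adjusted p under 0.05. A filter on low counts left 39 members among 14087 genes in microglia and 37 among 16915 in nonmicroglia. Oas3 passed in no fraction (52 counts over 37 microglia libraries), and Ifi204 and Oasl1 did not pass in nonmicroglia. Trem2 itself was lower in KO than in WT microglia in all 4 settings, with log2 differences of -1.88 ± 0.33 on cuprizone and -2.07 ± 0.33 on control chow at 5 weeks, and of -2.62 ± 0.34 and -2.45 ± 0.36 at 12 weeks (adjusted p = 0.00103, 0.000945, 1.19e-06 and 9.98e-05). The call on control chow at 5 weeks was lost without KO animal 1104, KO animal 9470 or WT animal 5512. Its 3' tags may lie outside the deleted part. They followed the KO label in these 4 settings. On cuprizone at 12 weeks Het minus WT was -0.06 ± 0.30 without a call, so there the tags do not check the Het label. On the first principal component, 4 microglia libraries (Het control 7674, WT control 9145 and KO cuprizone 981 at 12 weeks, KO control 945 at 5 weeks) and 2 nonmicroglia libraries stood apart, and results are given without them where a call changes. Because cells were sorted and sequenced in bulk, fewer cells that express a gene and less RNA per cell cannot be told apart.

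At 5 weeks the interferon response genes were higher in microglia of cuprizone-fed mice. Summed over the 40 genes, the level was 3119 ± 743 CPM on cuprizone and 1504 ± 245 CPM on control chow (SD, n = 9 each). The lowest, median and highest libraries stood at 2328, 3129 and 4550.1 CPM on cuprizone and at 1231, 1405 and 1969 CPM on control chow, so the diets did not overlap. Averaged over the 3 genotypes, 13 of 39 tested members rose and none fell, where 1.33% of all genes tested rose and 0.270% fell (1.60% in either direction). The fitted difference was above 0 for 38 of the 39 (Gbp3 alone lay below), with a median of 1.40 beside -0.00 over all genes, and 25 members had an unadjusted p under 0.05, as had 11.7% of all genes. 2 members, Isg15 and Lgals3bp, were higher in every cuprizone than in every control library, as were 0.121% of all genes, and 0 were lower in this way (0.0426%).

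**Figure D1:**
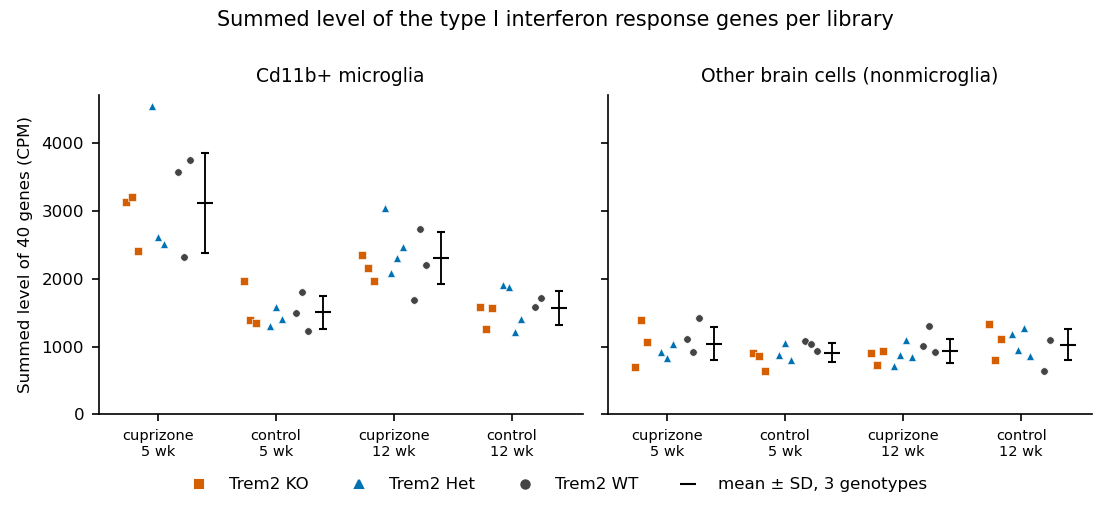
Summed level of the 40 genes in CPM (vertical axis) for each library, by weeks and diet, in microglia (left) and nonmicroglia (right); each point is a library, coloured by genotype, and bars mark the mean ± SD. In microglia at 5 weeks the cuprizone libraries lie between 2328 and 4550.1 CPM, all above the control libraries.

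Among the signalling and feedback genes, 2 of 5 rose. Isg15, a ubiquitin-like protein that is attached to other proteins during the response, was the member with the smallest adjusted p. Its level was 119, 151 and 262 CPM (lowest, median, highest) on cuprizone and 25.9, 51.5 and 94.5 CPM on control chow. Every cuprizone library lay above every control library, and Isg15 rose by 1.85 ± 0.27, adjusted p = 3.51e-06 (173 ± 44.8 against 49.1 ± 22.4 CPM, SD, n = 9 each). Irf7 encodes the transcription factor that amplifies interferon production. Irf7 stood at 12.4, 30.5 and 56.5 CPM on cuprizone and 0, 3.25 and 14.4 CPM on control chow, overlapping at the lower cuprizone libraries, and rose by 2.93 ± 0.77, adjusted p = 0.0265. Stat2 and Irf9, which belong to the ISRE-binding complex, differed by 0.53 ± 0.47 and 0.23 ± 0.20 (adjusted p = 0.803 and 0.799). Usp18, the protease that removes Isg15 from proteins and damps the receptor, differed by 0.12 ± 1.03 (adjusted p = 1) at 5.26 ± 5.84 CPM on cuprizone and 5.26 ± 5.03 CPM on control chow. The median difference of the 5 genes was 0.53.

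Of the 6 sensors of foreign nucleic acid, 1 rose, and their median difference was 1.37. Ifi204, a DNA-binding protein of the PYHIN family, rose by 1.53 ± 0.40, adjusted p = 0.0237, with 12.3, 50.7 and 102 CPM on cuprizone against 0.687, 20.7 and 36.1 CPM on control chow, and the diets overlapped. Its group of close relatives on chromosome 1 can share tags with it. The RNA helicases Ddx58 (RIG-I), Ifih1 (MDA5) and Dhx58 (LGP2) differed by 1.75 ± 0.58, 0.25 ± 0.36 and 1.79 ± 0.89 without a call (adjusted p = 0.123, 0.95 and 0.427). Zbp1, which senses left-handed nucleic acid, stood at 13.6, 35.6 and 49.0 CPM on cuprizone and 4.14, 16.5 and 36.8 CPM on control chow and differed by 1.21 ± 0.55 (adjusted p = 0.356). Eif2ak2 (PKR), the kinase that halts translation on double-stranded RNA, differed by 0.46 ± 0.27 (adjusted p = 0.588).

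The IFIT genes encode proteins that bind foreign RNA and block its translation, and 2 of 4 rose, with a median of 1.91. Ifit3 rose by 2.12 ± 0.52, adjusted p = 0.0149. Its libraries held 17.8, 33.3 and 107 CPM on cuprizone and 0.508, 8.12 and 33.0 CPM on control chow, and the diets overlapped. Ifit2 rose by 1.94 ± 0.53, adjusted p = 0.0389, with 31.1, 38.8 and 61.4 CPM on cuprizone and 0, 12.8 and 39.5 CPM on control chow, and also overlapped. Ifit1 and Ifit3b differed by 1.87 ± 0.84 and 1.66 ± 0.57 and did not pass (adjusted p = 0.349 and 0.143). Ifit3 and Ifit3b are near-identical neighbours, so the split of counts between them is uncertain. The OAS genes, whose enzymes make the signal for RNase L, had a median of 2.47, but none of the 4 tested passed. Oasl2 stood at 3.78, 19.1 and 45.6 CPM on cuprizone and 0, 7.01 and 18.7 CPM on control chow and differed by 1.87 ± 0.78 (adjusted p = 0.284). Oas1a and Oas2 were at 0 in all 3 Het control libraries, so their fitted differences of 3.51 and 3.06 depend on the prior count. With those groups held at 3 counts over the group, they were 2.57 and 2.13, which also lowers the OAS median. Oasl1 differed by 1.28 ± 1.18 (adjusted p = 0.816).

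Among the 7 other antiviral effectors, 4 rose, and the median difference was 1.32. Ifitm3 blocks the entry of viruses at the endosome, and Bst2 (tetherin) holds budding virions at the cell surface. Ifitm3 rose by 1.67 ± 0.27, adjusted p = 4.81e-05, with 99.9, 155 and 395 CPM on cuprizone and 33.0, 47.4 and 122 CPM on control chow. Its highest cuprizone library, Het animal 1106, stood apart from the other 8, and the diets overlapped at the low end of cuprizone. Bst2 rose by 0.83 ± 0.16, adjusted p = 0.000643, with 490.2, 739 and 833 CPM on cuprizone and 299, 398 and 543 CPM on control chow, where 1 control library (WT animal 309) lay above the lowest cuprizone library. Trim30a, which curbs inflammatory signalling in mice, rose by 0.72 ± 0.20, adjusted p = 0.0436 (189.6 ± 61.9 against 116 ± 39.998 CPM), and belongs to a cluster of similar genes. Mx1, a GTPase that traps viral particles, rose by 4.15 ± 1.11, adjusted p = 0.0329 at a low level, 9.33 ± 6.10 CPM on cuprizone and 2.54 ± 3.72 CPM on control chow. It was at 0 in 1 of 9 cuprizone and 5 of 9 control libraries, among them all 3 Het controls, and its difference was 2.69 with that group held at 3 counts. Rsad2 (viperin) and its chromosomal neighbour Cmpk2 differed by 1.40 ± 0.49 and 1.32 ± 1.08, and Mx2 by 0.95 ± 0.59, without passing (adjusted p = 0.178, 0.765 and 0.614).

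Of the 11 other members, 4 rose, and the median difference was 0.69. Lgals3bp encodes a secreted glycoprotein that binds galectins. Its level was 130.1, 286 and 569 CPM on cuprizone and 25.4, 58.8 and 98.9 CPM on control chow, with no overlap, and it rose by 2.25 ± 0.31, adjusted p = 2.31e-05 (299 ± 132 against 64.3 ± 26.0 CPM). Ifi27l2a, a small interferon-induced membrane protein, stood at 60.1, 178 and 431 CPM on cuprizone and 24.6, 36.5 and 81.0 CPM on control chow and rose by 2.23 ± 0.34, adjusted p = 3.73e-05. Its overlap came from the highest control library (KO animal 1104) and the 2 lowest cuprizone libraries. Rtp4, a chaperone of cell-surface receptors, rose by 1.71 ± 0.37, adjusted p = 0.00399, with 48.3, 92.9 and 152 CPM on cuprizone and 3.01, 25.8 and 85.2 CPM on control chow, overlapping. Slfn5, of the schlafen family, rose by 1.53 ± 0.28, adjusted p = 0.000345, with 63.4, 127 and 193 CPM on cuprizone and 21.8, 37.5 and 69.5 CPM on control chow, with the lowest cuprizone library below the 2 highest controls. Xaf1, Sp100, Ifi44, Slfn2, Lgals9, Ifi35 and Parp14 differed by 0.24 to 3.13 and missed the threshold (adjusted p = 0.203 to 0.986). Neither guanylate-binding protein passed. Gbp2 stood at 0, 12.4 and 43.6 CPM on cuprizone and 0, 5.07 and 29.5 CPM on control chow (difference 1.16 ± 0.98), and Gbp3 differed by -0.998 ± 0.61 (adjusted p = 0.781 and 0.595).

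**Figure D2:**
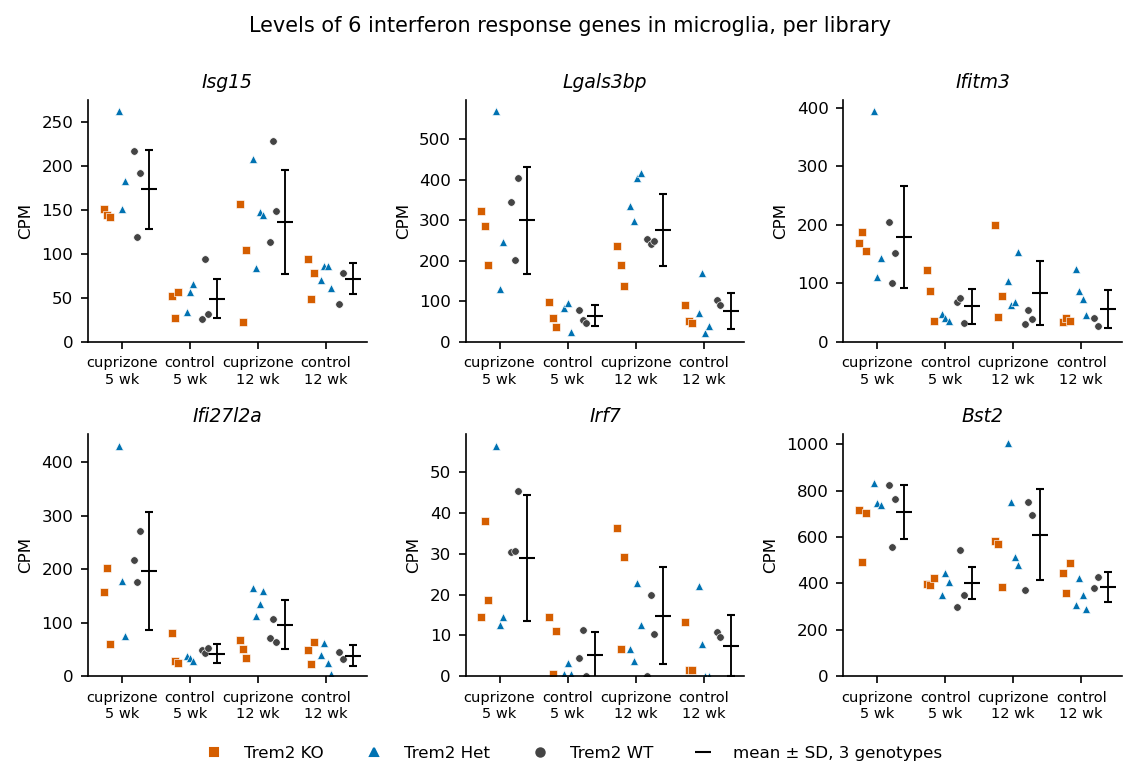
Levels in CPM (vertical axes) of Isg15, Lgals3bp, Ifitm3, Ifi27l2a, Irf7 and Bst2 in each microglia library, by weeks and diet, coloured by genotype, with bars at the mean ± SD. At 5 weeks Isg15 runs between 119 and 262 CPM on cuprizone, above all control libraries, and Lgals3bp shows the same separation.

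The 7 members that kept their call under all 25 alternative settings and left-out libraries at 5 weeks were Bst2, Ifi27l2a, Ifitm3, Isg15, Lgals3bp, Rtp4 and Slfn5. The number called fell to 8 without Het cuprizone animal 1106 or WT cuprizone animal 9144, against 13 with all libraries, and was 9 without KO control library 945, the only one of these groups that stands apart on the first component. Trim30a, Ifit2, Mx1 and Irf7 were the members lost most often, in 17, 15, 14 and 11 of the 25 settings.

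The rest of the pathway was examined through 4 lists of other interferon genes. Of the 6 tested ligand and receptor genes none passed, and of 27 signalling and sensing genes none passed, with medians of 0.06 and -0.00. Of 59 other interferon-stimulated genes 3 rose and none fell, with a median of 0.49. They were Cxcl10, a chemokine that draws T cells (1.71 ± 0.30, adjusted p = 0.000245, 163 ± 59.4 against 50.6 ± 22.6 CPM), Tspo, a mitochondrial membrane protein (1.03 ± 0.24, adjusted p = 0.00996), and Shisa5 (0.72 ± 0.18, adjusted p = 0.0132). Of 25 tested genes more typical of type II interferon 1 rose, B2m, the light chain of MHC class I (0.93 ± 0.16, adjusted p = 0.000116), with 3838 ± 1365 CPM on cuprizone and 2029.8 ± 643 CPM on control chow. Interferon transcripts themselves were scarcely detected. Ifnb1 had 5 tags in 1 of 74 libraries, and the 6 listed Ifna genes had 0 in all 74. Ifng had 76 tags in 7 libraries, all of nonmicroglia. Tags of the receptor genes Ifnar1 (2997) and Ifnar2 (17779) were present in all 74 libraries.

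Cell type markers were read in the same microglia libraries. The summed level of 10 microglia markers ran at 21738 to 42008 CPM on cuprizone and 26930.2 to 42355 CPM on control chow at 5 weeks, and 2 of the 10 fell (Sall1 and Cx3cr1). Border macrophage markers summed to 492 to 1267 and 778 to 1576 CPM (1 of 8, Cd163, fell), monocyte markers to 12.5 to 301 and 3.84 to 241 CPM, and neutrophil markers to 376 to 3548 and 119 to 7958 CPM, with no monocyte or neutrophil marker passing the test. T and NK cell markers summed to 0 to 16.9 CPM on cuprizone and 0 to 33.0 CPM on control chow, with Cd3e, Cd3g and Ncr1 at 0 in all 18 libraries. Of the plasmacytoid dendritic cell list, 1 of 3 tested genes, Cox6a2, rose, while the list summed to 209 to 402 CPM on cuprizone and 227 to 525 CPM on control chow. The part of these cell types in the interferon genes' difference was not tested.

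Within single genotypes, with 3 mice per diet, members passed the test at 5 weeks in Het mice. Members called higher numbered 0 in KO, 4 in Het and 0 in WT microglia, beside 0.0568%, 0.263% and 0.142% of all genes called, and none was called lower (0.0142% of all genes in Het). Members higher in all 3 cuprizone than in all 3 control mice numbered 14 in KO, 16 in Het and 15 in WT, beside 5.09%, 6.26% and 6.84% of all genes, and 0 were lower without overlap in each genotype (4.51%, 6.34% and 5.96% of all genes). At an unadjusted p under 0.05 the counts were 11, 16 and 13 of 39 in KO, Het and WT (6.71%, 8.15% and 6.82% of all genes), the median differences were 1.16, 1.57 and 1.05, and the DESeq2 Wald test called 2, 11 and 4 (0.248%, 0.965% and 0.540% of all genes). The difference was above 0 in all 3 genotypes for 25 of 39 members (64.1%), compared with 16.1% of all genes. In Het mice the called members were Ifi27l2a (2.73 ± 0.59, adjusted p = 0.0248), Ifitm3 (2.34 ± 0.48, adjusted p = 0.00745), Isg15 (1.94 ± 0.46, adjusted p = 0.0368) and Ddx58 (5.06 ± 1.17, adjusted p = 0.031). The Ddx58 difference rested on 1 Het library, with 78.1 CPM in animal 1106 against a median of 13.4 on cuprizone, and on controls near 0. Without animal 1106, or without control animal 9546, no member was called in Het mice.

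The values of single mice at 5 weeks were as follows. Isg15 stood at 144, 150.5 and 142 CPM in KO, 262, 151 and 182 CPM in Het and 119, 217 and 191 CPM in WT mice on cuprizone. On control chow Isg15 stood at 26.9, 51.5 and 56.5 CPM in KO, 33.5, 56.3 and 65.1 CPM in Het and 94.5, 25.9 and 31.9 CPM in WT mice. Isg15 on cuprizone was above all controls in each genotype, and its highest control was WT animal 309. Lgals3bp stood at 286, 324 and 188 CPM in KO, 569, 130.1 and 246 CPM in Het and 201, 345 and 404 CPM in WT mice on cuprizone. On control chow Lgals3bp stood at 58.8, 98.9 and 37.5 CPM in KO, 83.1, 95.3 and 25.4 CPM in Het and 54.5, 78.7 and 46.2 CPM in WT mice. All 9 cuprizone values of Lgals3bp exceeded the controls, with the lowest and the highest of the 9 among the 3 Het mice. Ifitm3 stood at 188, 169 and 155 CPM in KO, 395, 110.3 and 143 CPM in Het and 99.9, 205 and 153 CPM in WT mice on cuprizone. On control chow Ifitm3 stood at 86.8, 122 and 36.1 CPM in KO, 47.4, 41.2 and 35.6 CPM in Het and 75.4, 67.4 and 33.0 CPM in WT mice. In Ifitm3 the KO controls included 1 mouse above the lowest Het and WT cuprizone mice. Ifi27l2a stood at 202, 157 and 60.1 CPM in KO, 431, 178 and 74.6 CPM in Het and 175, 218 and 271 CPM in WT mice on cuprizone. On control chow Ifi27l2a stood at 28.0, 81.0 and 24.6 CPM in KO, 36.5, 33.6 and 28.5 CPM in Het and 43.7, 48.5 and 52.2 CPM in WT mice. For Ifi27l2a the diets overlapped in KO mice and not in Het or WT mice.

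Irf7 stood at 38.02, 14.4 and 18.8 CPM in KO, 56.5, 12.4 and 14.6 CPM in Het and 30.8, 30.5 and 45.4 CPM in WT mice on cuprizone. On control chow Irf7 stood at 0.549, 14.4 and 11.1 CPM in KO, 0.376, 3.25 and 0.508 CPM in Het and 11.4, 4.31 and 0 CPM in WT mice. Irf7 was under 1 CPM in 1 KO, 2 Het and 1 WT control, and the cuprizone mice of each genotype lay above its own controls, in KO mice by less than 1 count is worth. Bst2 stood at 490.2, 718 and 703 CPM in KO, 833, 748 and 739 CPM in Het and 556, 824 and 763 CPM in WT mice on cuprizone. On control chow Bst2 stood at 393, 398 and 423 CPM in KO, 351, 445 and 406 CPM in Het and 543, 299 and 348 CPM in WT mice. In Bst2 each genotype's cuprizone mice lay above its own controls. At 5 weeks Ifit3 averaged 40.1 ± 16.6 CPM in KO, 55.8 ± 44.6 in Het and 48.2 ± 37.7 in WT mice on cuprizone, against 18.3 ± 10.3 in KO, 4.76 ± 3.88 in Het and 17.9 ± 13.3 CPM in WT mice on control chow. At 5 weeks Zbp1 averaged 28.0 ± 14.7 CPM in KO, 38.3 ± 12.4 in Het and 35.3 ± 12.5 in WT mice on cuprizone, against 14.4 ± 6.18 in KO, 14.0 ± 8.70 in Het and 17.7 ± 16.5 CPM in WT mice on control chow. For Ifit3 and Zbp1 the mean was higher on cuprizone in each genotype, and in WT mice the diets overlapped in both genes. At 5 weeks Oasl2 averaged 25.0 ± 18.4 CPM in KO, 16.6 ± 12.9 in Het and 24.9 ± 20.1 in WT mice on cuprizone, against 3.39 ± 4.73 in KO, 5.46 ± 5.69 in Het and 11.5 ± 6.28 CPM in WT mice on control chow. At 5 weeks Stat2 averaged 35.1 ± 10.5 CPM in KO, 21.7 ± 5.52 in Het and 31.0 ± 26.5 in WT mice on cuprizone, against 15.4 ± 11.9 in KO, 28.0 ± 7.24 in Het and 18.4 ± 8.88 CPM in WT mice on control chow. Stat2 in Het mice was lower on cuprizone than on control chow. At 5 weeks Usp18 averaged 8.51 ± 9.03 CPM in KO, 2.05 ± 2.26 in Het and 5.23 ± 4.27 in WT mice on cuprizone, against 10.6 ± 3.55 in KO, 2.63 ± 2.31 in Het and 2.57 ± 4.45 CPM in WT mice on control chow. At 5 weeks Gbp2 averaged 11.7 ± 11.3 CPM in KO, 7.04 ± 6.29 in Het and 21.5 ± 19.5 in WT mice on cuprizone, against 4.45 ± 3.86 in KO, 12.0 ± 15.5 in Het and 3.16 ± 2.75 CPM in WT mice on control chow. Usp18 in KO and Het mice and Gbp2 in Het mice were not higher on cuprizone, and neither gene passed the test in any genotype.

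**Figure D3:**
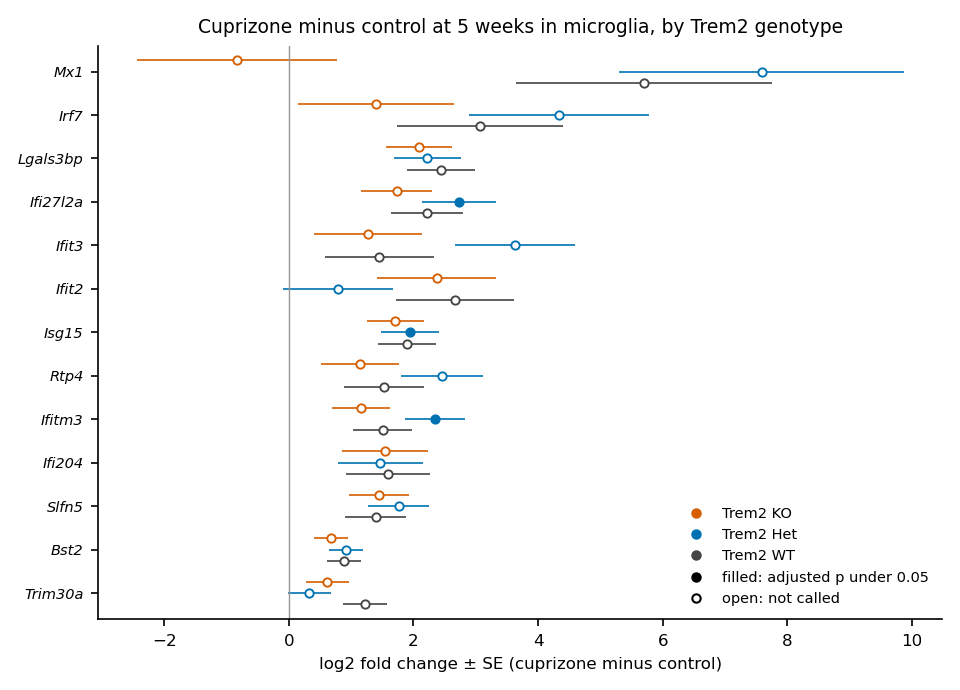
Cuprizone minus control difference at 5 weeks in microglia (horizontal axis, log2 fold change) for the 13 members that rose over the 3 genotypes, by genotype; points are fitted values, lines are SE, and filled points passed the test. Points of the 3 genotypes lie mostly to the right of 0, and the filled points are Ifi27l2a, Ifitm3 and Isg15 in Het mice (Ddx58, also called in Het mice, is not among the 13).

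At 12 weeks fewer members rose with cuprizone in microglia than at 5 weeks, and all of them had also risen at 5 weeks. The summed level was 2304 ± 384 CPM on cuprizone (SD, n = 10) and 1573 ± 246 CPM on control chow (SD, n = 9). Libraries ran at 1689, 2256 and 3039 CPM (lowest, median, highest) on cuprizone and 1219, 1583 and 1916 CPM on control chow, so the diets overlapped. Averaged over genotypes, 6 of 39 members rose and none fell, where 2.04% of all genes rose and 0.909% fell (2.95% in either direction). The median was 0.48, or 0.41 with the 5 members that had a whole group at 0 held at 3 counts, and 31 of 39 were above 0. Called members were Lgals3bp (1.82 ± 0.32, adjusted p = 0.000404, 276 ± 88.5 against 76.2 ± 44.2 CPM) and Ifi204 (1.499 ± 0.41, adjusted p = 0.0254, 42.8 ± 15.3 against 18.8 ± 10.8 CPM). Slfn5 (1.48 ± 0.29, adjusted p = 0.000597, 98.5 ± 47.5 against 37.7 ± 13.3 CPM) and Ifi27l2a (1.19 ± 0.34, adjusted p = 0.0405, 96.2 ± 46.0 against 37.7 ± 19.6 CPM) also rose. Isg15 rose by 0.99 ± 0.26, adjusted p = 0.0205 (136 ± 59.1 against 71.7 ± 17.7 CPM), and Bst2 by 0.70 ± 0.16, adjusted p = 0.00424 (611 ± 195 against 385 ± 65.6 CPM). Of these 6 members, Bst2 and Slfn5 kept the call under all 26 alternative settings and left-out libraries. Without the 4 libraries that stand apart 2 members were called, with limma voom 3, and 3 without WT control 1932, WT control 9145 or WT cuprizone 3917. Usp18 had the largest fitted value, 4.29 (adjusted p = 0.061), or 2.71 with its KO control group, at 0 in all 3 mice, held at 3 counts.

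By role, 1 of 5 signalling genes (Isg15), 1 of 6 sensors (Ifi204), 1 of 7 antiviral effectors (Bst2) and 3 of 11 other members rose at 12 weeks, and no IFIT, OAS or guanylate-binding gene passed. Median differences were 0.30 for the IFIT genes and 0.61 for the OAS genes. Ifitm3 differed by 0.74 ± 0.28, Irf7 by 0.93 ± 0.74, Ifit3 by 1.04 ± 0.53 and Zbp1 by 1.61 ± 0.58 (adjusted p = 0.151, 0.648, 0.352 and 0.134). Oasl2, Stat2 and Gbp2 differed by -1.26 ± 0.80, 0.41 ± 0.48 and -0.45 ± 1.04 (adjusted p = 0.506, 0.823 and 0.989). Among the other interferon genes, Tspo (0.86 ± 0.25, adjusted p = 0.0373) and B2m (0.97 ± 0.16, adjusted p = 3.83e-05) rose, each being 1 of its list, and Tmem173, the adaptor STING, fell by 0.65 ± 0.17 on the log2 scale (adjusted p = 0.0205). Of the type II list Gbp7 and Gbp5 fell, by 1.54 and 0.996 on the log2 scale (adjusted p = 0.000502 and 0.0492). In the same libraries 5 of 10 microglia markers fell (summed 16407 to 28003 CPM on cuprizone and 27546 to 35899 CPM on control chow), 1 of 8 border macrophage markers fell, Mrc1 (268 to 1087 and 413 to 1176 CPM), and Cox6a2 rose. The part of these in the interferon genes' difference was not tested. Few 12-week microglia libraries have an RNA integrity number in the labels. Those given on cuprizone were lower than or equal to those given on control chow, and the part of RNA quality was not tested.

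By genotype at 12 weeks, members called higher numbered 0 in KO, 4 in Het and 0 in WT microglia, beside 0.0284%, 1.88% and 0.958% of all genes. Members without overlap and higher on cuprizone numbered 4, 4 and 11 in KO, Het and WT, beside 4.76%, 3.65% and 11.9% of all genes. Lower without overlap were 1 in KO (Ifit1), 0 in Het and 4 in WT mice (Ifit3b, Oasl2, Gbp2 and Rtp4), beside 4.92%, 4.56% and 13% of all genes. Counts at an unadjusted p under 0.05 were 6, 6 and 9 (7.44%, 13.5% and 10.9% of all genes), with medians of 0.44, 0.43 and 0.43. The difference was above 0 in all 3 genotypes for 12 of 39 members (30.8%), compared with 14.2% of all genes. In Het mice, with 4 per diet, Lgals3bp (2.46 ± 0.48, adjusted p = 0.00188), Ifi27l2a (2.27 ± 0.51, adjusted p = 0.00614), Slfn5 (1.47 ± 0.42, adjusted p = 0.0434) and Bst2 (1.15 ± 0.24, adjusted p = 0.00166) rose. In the same model KO values of these genes were 1.55 ± 0.53, 0.20 ± 0.57, 0.93 ± 0.49 and 0.22 ± 0.27, and WT values were 1.46 ± 0.61, 1.11 ± 0.66, 2.04 ± 0.59 and 0.72 ± 0.31. Lgals3bp stood at 138, 236 and 189 CPM in KO, 335, 297, 404 and 416 CPM in Het and 254, 240.2 and 248 CPM in WT mice on cuprizone. On control chow Lgals3bp stood at 90.3, 51.1 and 47.4 CPM in KO, 169, 21.3, 72.1 and 39.1 CPM in Het and 103 and 92.0 CPM in WT mice. Lgals3bp on cuprizone lay above the controls of its own genotype in every mouse. Isg15 stood at 105, 157 and 22.5 CPM in KO, 207, 83.7, 148 and 143 CPM in Het and 113, 228 and 149 CPM in WT mice on cuprizone. On control chow Isg15 stood at 94.3, 48.1 and 77.8 CPM in KO, 86.4, 86.0, 70.3 and 61.2 CPM in Het and 43.0 and 78.5 CPM in WT mice. In Isg15 KO animal 9542 on cuprizone had the lowest value of all 19 mice, and the diets overlapped in KO and Het mice. Slfn5 stood at 54.2, 36.9 and 133 CPM in KO, 87.4, 42.5, 153 and 129 CPM in Het and 98.5, 174 and 76.4 CPM in WT mice on cuprizone. On control chow Slfn5 stood at 37.2, 43.6 and 32.5 CPM in KO, 67.6, 36.0, 37.9 and 24.2 CPM in Het and 39.4 and 21.1 CPM in WT mice. For Slfn5 the diets overlapped in KO and Het mice and not in WT mice. Bst2 stood at 384, 582 and 571 CPM in KO, 1007, 749.9, 515 and 480.3 CPM in Het and 370.0, 749 and 696 CPM in WT mice on cuprizone. On control chow Bst2 stood at 444, 358 and 487 CPM in KO, 424, 351, 308 and 287 CPM in Het and 382 and 425 CPM in WT mice. Bst2 on cuprizone lay above control in all Het mice, while 1 KO and 1 WT mouse on cuprizone lay below the highest control of their genotype.

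At 12 weeks Ifi27l2a averaged 50.2 ± 17.5 CPM in KO, 142 ± 23.8 in Het and 80.3 ± 23.2 in WT mice on cuprizone, against 44.4 ± 20.9 in KO, 32.3 ± 25.0 in Het and 38.4 ± 9.58 CPM in WT mice on control chow. At 12 weeks Ifitm3 averaged 107 ± 82.0 CPM in KO, 97.3 ± 41.6 in Het and 40.9 ± 12.1 in WT mice on cuprizone, against 36.4 ± 3.83 in KO, 82.3 ± 33.0 in Het and 33.96 ± 8.74 CPM in WT mice on control chow. Ifi27l2a in Het mice was higher on cuprizone in all 4 mice, and KO means were close on both diets. At 12 weeks Irf7 averaged 24.01 ± 15.5 CPM in KO, 11.4 ± 8.45 in Het and 10.1 ± 9.95 in WT mice on cuprizone, against 5.39 ± 6.83 in KO, 7.50 ± 10.5 in Het and 10.2 ± 0.8293 CPM in WT mice on control chow. At 12 weeks Ifit3 averaged 16.3 ± 10.1 CPM in KO, 24.3 ± 13.3 in Het and 17.6 ± 23.5 in WT mice on cuprizone, against 5.54 ± 1.94 in KO, 19.001 ± 6.04 in Het and 9.69 ± 2.55 CPM in WT mice on control chow. Irf7 in Het and WT mice and Ifit3 in Het mice differed little beside their SDs. At 12 weeks Oasl2 averaged 5.71 ± 4.42 CPM in KO, 11.9 ± 9.26 in Het and 2.34 ± 2.23 in WT mice on cuprizone, against 7.07 ± 6.13 in KO, 16.7 ± 13.9 in Het and 24.1 ± 18.8 CPM in WT mice on control chow. At 12 weeks Stat2 averaged 29.2 ± 1.86 CPM in KO, 25.1 ± 9.04 in Het and 18.2 ± 8.57 in WT mice on cuprizone, against 10.3 ± 12.7 in KO, 19.97 ± 7.45 in Het and 32.9 ± 13.1 CPM in WT mice on control chow. Oasl2 was lower on cuprizone in all 3 genotypes, with no call. At 12 weeks Usp18 averaged 8.54 ± 14.8 CPM in KO, 7.88 ± 7.35 in Het and 12.6 ± 5.15 in WT mice on cuprizone, against 0 ± 0 in KO, 4.28 ± 7.10 in Het and 0.358 ± 0.507 CPM in WT mice on control chow. At 12 weeks Zbp1 averaged 18.5 ± 15.8 CPM in KO, 24.5 ± 13.4 in Het and 40.7 ± 34.5 in WT mice on cuprizone, against 7.84 ± 6.97 in KO, 5.93 ± 6.14 in Het and 18.7 ± 22.4 CPM in WT mice on control chow. At 12 weeks Gbp2 averaged 2.36 ± 2.13 CPM in KO, 2.39 ± 3.16 in Het and 9.95 ± 8.81 in WT mice on cuprizone, against 1.32 ± 2.29 in KO, 5.17 ± 5.49 in Het and 26.9 ± 5.54 CPM in WT mice on control chow. The mean of Zbp1 was higher on cuprizone in each genotype, with overlap of the diets in each. Usp18 was at 0 in the KO controls and in 2 of the 3 KO mice on cuprizone, and at 25.6 CPM in KO animal 981.

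**Figure D4:**
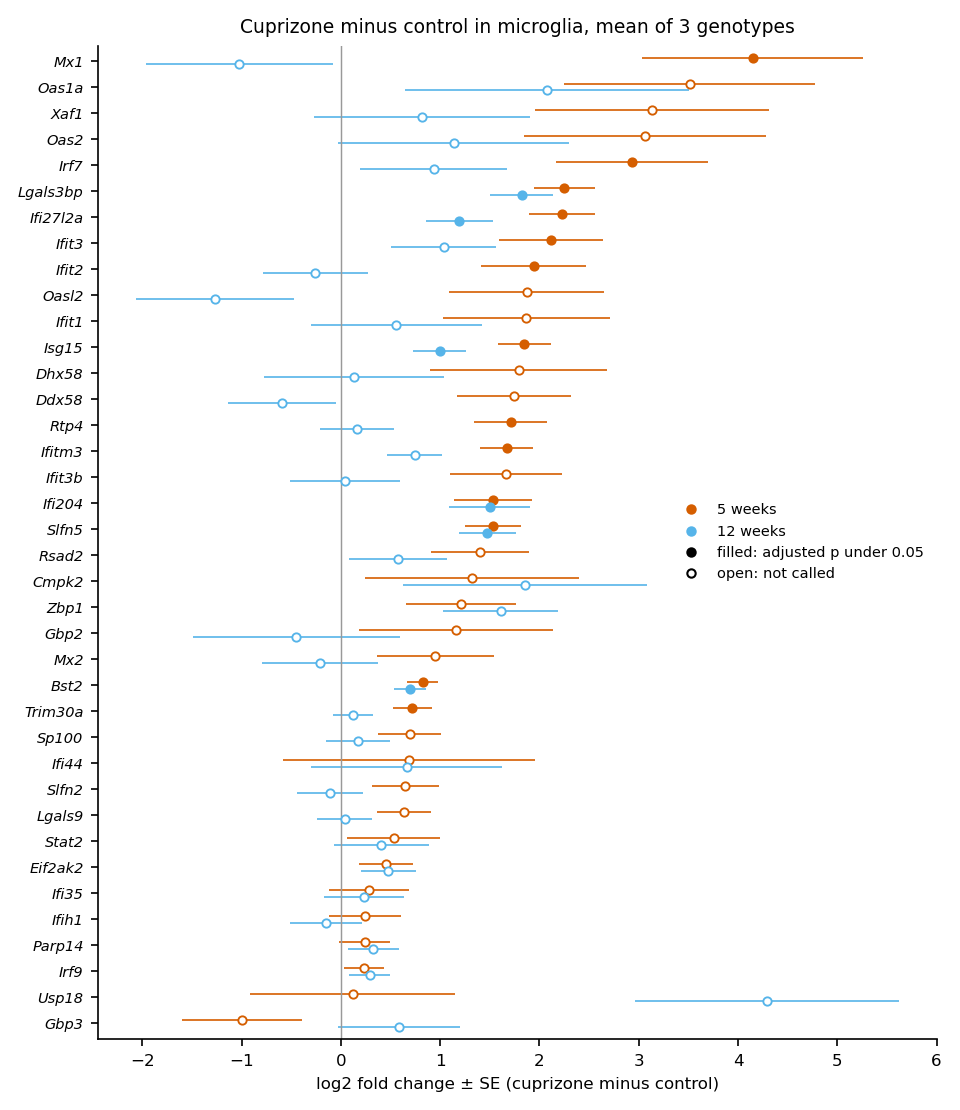
Cuprizone minus control difference in microglia (horizontal axis, log2 fold change, mean of 3 genotypes) at 5 and at 12 weeks for each tested member; points are fitted values, lines are SE, and filled points passed the test. Oas3, not tested, and Oasl1, with no usable SE at 12 weeks, are left out. The points at 5 weeks reach further right for most genes, with 13 filled at 5 and 6 at 12 weeks.

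Set directly against each other, microglia of mice on cuprizone had lower levels of most members at 12 than at 5 weeks. The difference of 12 minus 5 weeks was below 0 for 36 of 39 members, with a median of -0.46 beside -0.07 over all genes, and 2 members fell, where 0.114% of all genes fell. Ifitm3 fell by 1.22 ± 0.26 on the log2 scale (adjusted p = 0.0124), with 29.98, 66.1 and 199 CPM (lowest, median, highest) at 12 weeks and 99.9, 155 and 395 CPM at 5 weeks. Rtp4 fell by 1.64 ± 0.36 on the log2 scale (adjusted p = 0.0148), with 12.3, 28.7 and 86.4 CPM at 12 weeks and 48.3, 92.9 and 152 CPM at 5 weeks. The weeks overlapped in both genes. Each was lost without Het animal 1106 or WT animal 2474 of the 5-week cuprizone groups, Ifitm3 also without the 4 libraries that stand apart, and Rtp4 also without KO animal 310 or WT animal 8043. Ifi27l2a (-1.15 ± 0.32), Ifit2 (-1.65 ± 0.51) and Ifit3 (-1.28 ± 0.49) did not pass (adjusted p = 0.119, 0.178 and 0.3), and neither did Isg15 (-0.37 ± 0.25), Bst2 (-0.20 ± 0.15), Slfn5 (-0.32 ± 0.27) or Lgals3bp (-0.18 ± 0.29). Weeks on the diet and the mice's age cannot be told apart in this comparison alone. RNA quality also differed. The labels give no RNA integrity number for most of the 12-week cuprizone microglia libraries. Those given at 12 weeks were all lower than those given for cuprizone microglia at 5 weeks. The part of RNA quality in the difference between the weeks was not tested. On control chow no member passed at 12 against 5 weeks, where 0.00710% of all genes were called, 3 members had an unadjusted p under 0.05 (7.94% of all genes) and the median was -0.03. In the test of the 12-week response minus the 5-week response no member passed either (0.00710% of all genes called), while 11 members had an unadjusted p under 0.05 (5.52% of all genes), 10 of them below 0 and Usp18 above it (4.17, or 2.39 with its group at 0 held at 3 counts), and the DESeq2 and limma voom fits called none. The smallest adjusted p was 0.317, and the median of -0.82 was -0.44 without the libraries that stand apart. The response difference was -0.86 ± 0.37 for Isg15, -0.92 ± 0.38 for Ifitm3, -2.20 ± 0.74 for Ifit2, -0.13 ± 0.22 for Bst2 and -0.06 ± 0.40 for Slfn5. The 95% interval (normal, from the SE) ran -1.57 to -0.14 for Isg15 and -0.83 to 0.72 for Slfn5.

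No member passed in the 8 comparisons made between Trem2 genotypes in microglia, while KO minus Het, and Het minus WT on control chow, were not tested. KO minus WT on cuprizone at 5 weeks gave 0 calls (smallest adjusted p = 0.956; 0.0781% of all genes called), with 3 members higher in every KO than in every WT mouse beside 4.71% of all genes, and on control chow 0 (0.00710%). Het minus WT on cuprizone at 5 weeks gave 0 (0%), and the KO minus WT difference in the 5-week response gave 0 (0.00710%). At 12 weeks KO minus WT gave 0 on cuprizone (smallest adjusted p = 0.358; 0.440%) and 0 on control chow (0.0213%), Het minus WT on cuprizone gave 0 (0.121%), and the difference in response gave 0 (smallest adjusted p = 0.131; 0.0284%). The value of 0.131 was that of Oasl1, which had whole groups at 0, so its fitted difference depends on the prior count. In these 8 comparisons 0 to 3 of 39 members had an unadjusted p under 0.05 (4.26% to 10.6% of all genes), and neither the DESeq2 Wald test nor limma voom called a member. For KO minus WT on cuprizone, Isg15 differed by -0.29 ± 0.44 at 5 weeks (interval -1.15 to 0.58) and -0.92 ± 0.45 at 12 weeks (interval -1.80 to -0.04). The difference between KO and WT in the 5-week response was -0.18 ± 0.64 for Isg15 (interval -1.43 to 1.06), -0.35 ± 0.73 for Lgals3bp (-1.79 to 1.08), -0.34 ± 0.65 for Ifitm3 (-1.61 to 0.93) and -0.20 ± 0.38 for Bst2 (-0.95 to 0.55). At 12 weeks it was -1.19 ± 0.68 for Isg15 (-2.53 to 0.14), 0.09 ± 0.78 for Lgals3bp (-1.43 to 1.62), 1.17 ± 0.71 for Ifitm3 (-0.22 to 2.55) and -1.11 ± 0.74 for Slfn5 (-2.57 to 0.35). These intervals are wide beside the 5-week diet differences, and the data do not show that the genotypes respond alike.

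In the nonmicroglia fraction no member rose or fell with cuprizone at either time. Summed levels were 697, 1043 and 1416 CPM (lowest, median, highest) on cuprizone and 639.8, 909.8 and 1088 CPM on control chow at 5 weeks. At 12 weeks they were 715, 918 and 1308 CPM on cuprizone and 644, 1104 and 1336 CPM on control chow, and the diets overlapped at both times. Averaged over genotypes, 0 of 37 tested members passed at 5 weeks (0.443% of all genes called; 3 members and 7.58% of all genes at an unadjusted p under 0.05) and 0 at 12 weeks (0.497%; 2 members and 8.41%). Medians were 0.25 at 5 and -0.12 at 12 weeks. Within genotypes 0 members passed at 5 weeks (0.0296%, 0.0591% and 0.0414% of all genes called in KO, Het and WT) and 0 at 12 weeks (0.0355%, 0.142% and 0.0828%). Between 12 and 5 weeks 0 passed on cuprizone (0.964%), 0 on control chow (0.236%) and 0 in the change of response (0.00591%). Across the 8 genotype comparisons 0 members and 0% of all genes were called, and 0 to 3 members had an unadjusted p under 0.05 (2.45% to 6.15% of all genes). The DESeq2 Wald test called 1 member in 1 nonmicroglia comparison (lower, KO at 12 weeks) and limma voom none. The share of all genes that the Wald test called there is not given here. At 5 weeks Isg15 differed by 0.47 ± 0.23 (adjusted p = 0.628), with 33.4, 126 and 206 CPM on cuprizone and 59.2, 96.8 and 138 CPM on control chow. The diets overlapped, and the highest values of Isg15 in the fraction were those of Het control animals 944 and 7674 at 12 weeks. At 12 weeks Isg15 differed by -0.45 ± 0.23 (adjusted p = 0.601). The largest fitted 5-week value was that of Mx1, 5.67 (adjusted p = 0.122), which was at 0 in all 9 controls, so it depends on the prior count. With each control group held at 3 counts it was 2.77.

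Group means of the nonmicroglia fraction were as follows for 4 genes that rose in microglia. At 5 weeks Isg15 averaged 122 ± 86.2 CPM in KO, 123 ± 12.9 in Het and 143 ± 37.0 in WT mice on cuprizone, against 64.0 ± 7.90 in KO, 104 ± 29.1 in Het and 115 ± 20.7 CPM in WT mice on control chow. At 12 weeks Isg15 averaged 103 ± 21.4 CPM in KO, 102 ± 22.8 in Het and 127 ± 51.1 in WT mice on cuprizone, against 137 ± 31.6 in KO, 201 ± 92.3 in Het and 125 ± 92.0 CPM in WT mice on control chow. Mean Isg15 was higher on cuprizone in each genotype at 5 weeks, and lower on cuprizone in KO and Het mice at 12 weeks. At 5 weeks Ifitm3 averaged 89.9 ± 24.5 CPM in KO, 67.7 ± 23.2 in Het and 90.6 ± 45.0 in WT mice on cuprizone, against 70.3 ± 45.8 in KO, 71.7 ± 18.6 in Het and 99.7 ± 30.2 CPM in WT mice on control chow. At 12 weeks Ifitm3 averaged 86.4 ± 36.7 CPM in KO, 90.7 ± 57.8 in Het and 97.0 ± 50.3 in WT mice on cuprizone, against 116 ± 29.3 in KO, 117 ± 29.6 in Het and 77.0 ± 4.89 CPM in WT mice on control chow. The mean of Ifitm3 was higher on cuprizone in KO at 5 weeks and in WT at 12 weeks. At 5 weeks Lgals3bp averaged 47.2 ± 14.2 CPM in KO, 27.9 ± 1.71 in Het and 38.9 ± 20.6 in WT mice on cuprizone, against 31.2 ± 8.81 in KO, 32.5 ± 17.0 in Het and 23.5 ± 2.97 CPM in WT mice on control chow. At 12 weeks Lgals3bp averaged 26.1 ± 6.13 CPM in KO, 18.5 ± 8.22 in Het and 24.6 ± 15.5 in WT mice on cuprizone, against 36.0 ± 20.7 in KO, 18.2 ± 3.03 in Het and 21.4 ± 16.3 CPM in WT mice on control chow. The mean of Lgals3bp was higher on cuprizone in KO and WT at 5 weeks and in Het and WT at 12 weeks. At 5 weeks Bst2 averaged 130.2 ± 48.3 CPM in KO, 163 ± 13.1 in Het and 118 ± 19.1 in WT mice on cuprizone, against 143 ± 29.2 in KO, 112 ± 17.0 in Het and 105 ± 51.3 CPM in WT mice on control chow. At 12 weeks Bst2 averaged 140.3 ± 24.03 CPM in KO, 129 ± 42.7 in Het and 187 ± 59.3 in WT mice on cuprizone, against 220.0 ± 93.6 in KO, 182 ± 33.6 in Het and 101 ± 98.7 CPM in WT mice on control chow. The highest mean of Bst2 in this fraction was that of the KO controls at 12 weeks.

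For the 8 remaining members of the panel no diet difference passed the test in this fraction. At 5 weeks Irf7 averaged 7.54 ± 7.49 CPM in KO, 16.4 ± 7.16 in Het and 17.3 ± 11.6 in WT mice on cuprizone, against 3.68 ± 3.88 in KO, 6.67 ± 4.28 in Het and 4.09 ± 6.3999 CPM in WT mice on control chow. At 12 weeks Irf7 averaged 5.1999 ± 7.49 CPM in KO, 5.09 ± 5.80 in Het and 3.52 ± 3.9998 in WT mice on cuprizone, against 11.8 ± 10.6 in KO, 3.15 ± 5.47 in Het and 16.9 ± 2.59 CPM in WT mice on control chow. The mean of Irf7 was higher on cuprizone in all 3 genotypes at 5 weeks and in Het at 12 weeks. At 5 weeks Ifi27l2a averaged 26.2 ± 14.5 CPM in KO, 17.6 ± 17.4 in Het and 24.2 ± 11.3 in WT mice on cuprizone, against 13.01 ± 10.1 in KO, 6.10 ± 5.10 in Het and 25.9 ± 15.1 CPM in WT mice on control chow. At 12 weeks Ifi27l2a averaged 22.3 ± 15.9 CPM in KO, 8.03 ± 5.25 in Het and 26.2 ± 3.70 in WT mice on cuprizone, against 20.3 ± 17.0 in KO, 31.6 ± 22.0 in Het and 27.4 ± 14.97 CPM in WT mice on control chow. The mean of Ifi27l2a was higher on cuprizone in KO and Het at 5 weeks and in KO at 12 weeks. At 5 weeks Ifit3 averaged 36.9 ± 32.8 CPM in KO, 18.1 ± 5.88 in Het and 25.8 ± 6.14 in WT mice on cuprizone, against 18.8 ± 5.62 in KO, 18.7 ± 19.8 in Het and 17.0 ± 15.5 CPM in WT mice on control chow. At 12 weeks Ifit3 averaged 18.8 ± 14.8 CPM in KO, 18.0 ± 9.50 in Het and 17.0 ± 7.14 in WT mice on cuprizone, against 28.1 ± 17.9 in KO, 15.4 ± 4.05 in Het and 17.8 ± 13.1 CPM in WT mice on control chow. The mean of Ifit3 was higher on cuprizone in KO and WT at 5 weeks and in Het at 12 weeks. At 5 weeks Oasl2 averaged 10.2 ± 8.87 CPM in KO, 5.46 ± 2.08 in Het and 12.0 ± 11.2 in WT mice on cuprizone, against 7.19 ± 3.42 in KO, 15.8 ± 18.8 in Het and 5.996 ± 9.70 CPM in WT mice on control chow. At 12 weeks Oasl2 averaged 2.12 ± 3.14 CPM in KO, 11.8 ± 4.20 in Het and 10.6 ± 11.5 in WT mice on cuprizone, against 5.03 ± 4.42 in KO, 8.41 ± 3.88 in Het and 8.41 ± 6.35 CPM in WT mice on control chow. The mean of Oasl2 was higher on cuprizone in KO and WT at 5 weeks and in Het and WT at 12 weeks.

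At 5 weeks Usp18 averaged 10.2 ± 12.5 CPM in KO, 5.12 ± 2.34 in Het and 6.03 ± 7.45 in WT mice on cuprizone, against 2.17 ± 1.93 in KO, 3.08 ± 4.25 in Het and 13.4 ± 7.37 CPM in WT mice on control chow. At 12 weeks Usp18 averaged 2.34 ± 4.06 CPM in KO, 2.86 ± 4.14 in Het and 3.06 ± 4.93 in WT mice on cuprizone, against 2.97 ± 0.898 in KO, 1.49 ± 2.58 in Het and 7.46 ± 1.30 CPM in WT mice on control chow. The mean of Usp18 was higher on cuprizone in KO and Het at 5 weeks and in Het at 12 weeks. At 5 weeks Stat2 averaged 37.6 ± 14.1 CPM in KO, 14.9 ± 0.2197 in Het and 19.4 ± 11.2 in WT mice on cuprizone, against 22.1 ± 13.3 in KO, 15.02 ± 1.98 in Het and 15.5 ± 13.9 CPM in WT mice on control chow. At 12 weeks Stat2 averaged 14.2 ± 6.46 CPM in KO, 21.8 ± 14.0 in Het and 4.21 ± 5.36 in WT mice on cuprizone, against 18.5 ± 13.5 in KO, 13.2 ± 13.02 in Het and 7.49 ± 4.21 CPM in WT mice on control chow. The mean of Stat2 was higher on cuprizone in KO and WT at 5 weeks and in Het at 12 weeks. At 5 weeks Zbp1 averaged 6.87 ± 8.16 CPM in KO, 4.91 ± 2.65 in Het and 7.01 ± 5.92 in WT mice on cuprizone, against 0.509 ± 0.445 in KO, 4.06 ± 4.92 in Het and 1.70 ± 2.94 CPM in WT mice on control chow. At 12 weeks Zbp1 averaged 0.477 ± 0.826 CPM in KO, 2.61 ± 1.97 in Het and 4.76 ± 4.29 in WT mice on cuprizone, against 1.98 ± 1.20 in KO, 8.07 ± 5.16 in Het and 0.327 ± 0.463 CPM in WT mice on control chow. The mean of Zbp1 was higher on cuprizone in all 3 genotypes at 5 weeks and in WT at 12 weeks. At 5 weeks Gbp2 averaged 8.56 ± 5.53 CPM in KO, 3.75 ± 4.29 in Het and 14.4 ± 15.02 in WT mice on cuprizone, against 7.14 ± 3.18 in KO, 10.3 ± 15.3 in Het and 19.9 ± 3.44 CPM in WT mice on control chow. At 12 weeks Gbp2 averaged 8.90 ± 3.85 CPM in KO, 13.2 ± 3.10 in Het and 21.2 ± 5.98 in WT mice on cuprizone, against 11.9 ± 2.74 in KO, 2.41 ± 3.94 in Het and 7.49 ± 4.21 CPM in WT mice on control chow. The mean of Gbp2 was higher on cuprizone in KO at 5 weeks and in Het and WT at 12 weeks.

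The fractions were then compared in one model of all 74 libraries with 24 group means. Where the labels give an RNA integrity number for both fractions of a mouse, that of nonmicroglia was always the lower. The part of RNA quality in the differences between fractions was not tested. On control chow, averaged over 6 groups, 18 of 39 members were higher in microglia (20.2% of all genes) and 8 were lower (27.6%). Of the 6 sensors 5 were higher, among them Ifi204 (5.77 ± 0.55, adjusted p = 1.29e-16), Zbp1 (2.99 ± 0.59, adjusted p = 8.37e-06) and Dhx58 (2.82 ± 0.79, adjusted p = 0.00148). Ifi204 failed the count filter in nonmicroglia alone (51 counts in that fraction). It entered this model only through its microglia counts, so its direction follows from the filter and is not evidence. Also higher were Trim30a (3.47 ± 0.34, adjusted p = 4.79e-13), Slfn2 (3.29 ± 0.46, adjusted p = 1.09e-09), Lgals9, which encodes galectin 9 (3.04 ± 0.39, adjusted p = 1.05e-09), and Parp14, an ADP-ribosyltransferase (2.49 ± 0.26, adjusted p = 3.52e-15). Mx2 was higher by 2.45 ± 0.61, and Bst2 by 1.75 ± 0.15 (393 ± 65.9 CPM in microglia and 148 ± 65.2 CPM in nonmicroglia, SD, n = 18 each). The remaining higher members were Lgals3bp, Irf9, Ifi27l2a, Rtp4, Ifit2, Ifih1, Ifi35, Eif2ak2 and Sp100, by 0.66 to 1.63. Lower in microglia were Cmpk2 (-2.66 ± 0.79, adjusted p = 0.00287), Ifi44 (-2.16 ± 0.90, adjusted p = 0.0396), Ifit1 (-2.07 ± 0.53, adjusted p = 0.000558), and 5 others, Xaf1, Ifit3b, Isg15, Ifitm3 and Slfn5, by -1.91 to -0.53. Isg15 stood at 25.9, 58.8 and 94.5 CPM in microglia and 59.2, 111 and 299 CPM in nonmicroglia, a difference of -0.78 ± 0.19, adjusted p = 0.000222. Ifitm3 was lower by 0.57 ± 0.21 and Slfn5 by 0.53 ± 0.22 on the log2 scale (adjusted p = 0.0148 and 0.038), and the Slfn5, Ifi44 and Xaf1 calls did not hold with the animal as a block (adjusted p = 0.0918, 0.162 and 0.0930). With DESeq2's size factors in place of TMM the split was 14 higher and 10 lower (Eif2ak2, Ifi35, Ifit2 and Sp100 lost their calls), and the median over all genes moved by -0.22, to -0.53, on control chow and by -0.20 on cuprizone at 5 weeks. Shares of all genes called with those factors are not given here.

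The fractions were also compared on cuprizone at 5 weeks. Among the 9 mice, 21 members were higher in microglia (16.8% of all genes) and 1, Gbp3, was lower (27.5%). The largest differences were those of Dhx58 (5.94 ± 1.26, adjusted p = 4.73e-05), Ifi204 (5.54 ± 0.67, adjusted p = 7.1e-12), Lgals9 (3.92 ± 0.54, adjusted p = 1.64e-08) and Slfn2 (3.85 ± 0.64, adjusted p = 2.3e-07), and Dhx58 had whole nonmicroglia groups at 0, with 4.85 at the floor of 3 counts. Ifi204 again entered only through its microglia counts, so its direction follows from the filter. Ifi27l2a (3.36 ± 0.48, adjusted p = 2.6e-08), Lgals3bp (3.30 ± 0.31, adjusted p = 1.47e-15), Trim30a (3.10 ± 0.44, adjusted p = 4.32e-08), Parp14 (2.74 ± 0.35, adjusted p = 7.19e-11), Zbp1 (2.68 ± 0.75, adjusted p = 0.00186) and Bst2 (2.65 ± 0.21, adjusted p = 3.87e-21) followed. The 11 other higher members, Irf9, Isg15, Ifih1, Ddx58, Eif2ak2, Ifit2, Ifitm3, Ifi35, Rtp4, Sp100 and Slfn5, differed by 0.70 to 2.48, and Gbp3 by -1.49 ± 0.53, adjusted p = 0.0157. Isg15 stood at 119, 151 and 262 CPM in microglia and 33.4, 126 and 206 CPM in nonmicroglia, a difference of 0.70 ± 0.26, adjusted p = 0.0199, which has the opposite sign to that on control chow, although the call on cuprizone was lost with DESeq2's size factors (0.48, adjusted p = 0.118). Ifitm3 and Slfn5 were likewise higher in microglia, by 1.38 ± 0.28 and 1.42 ± 0.31 (adjusted p = 2.55e-05 and 5.68e-05). The test of the difference in 5-week response, microglia minus nonmicroglia, called 3 members and 0.277% of all genes higher. They were Lgals3bp (1.90 ± 0.41, adjusted p = 0.00948), Slfn5 (1.82 ± 0.43, adjusted p = 0.0177) and Ifitm3 (1.61 ± 0.40, adjusted p = 0.0314), while Isg15 did not pass (1.37 ± 0.37, adjusted p = 0.0601). In nonmicroglia the 5-week differences of these 4 genes were 0.32 ± 0.39, -0.29 ± 0.30, 0.04 ± 0.26 and 0.47 ± 0.23. The median of the 39 members was 1.21 beside -0.06 over all genes. The count ranged from 1 (without nonmicroglia KO control 945) to 4 over left-out libraries and was 4 with the animal as a block. Ifitm3 lost its call in 14 of 43 alternatives, Lgals3bp with limma voom, and Slfn5 without that same library.

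**Figure D5:**
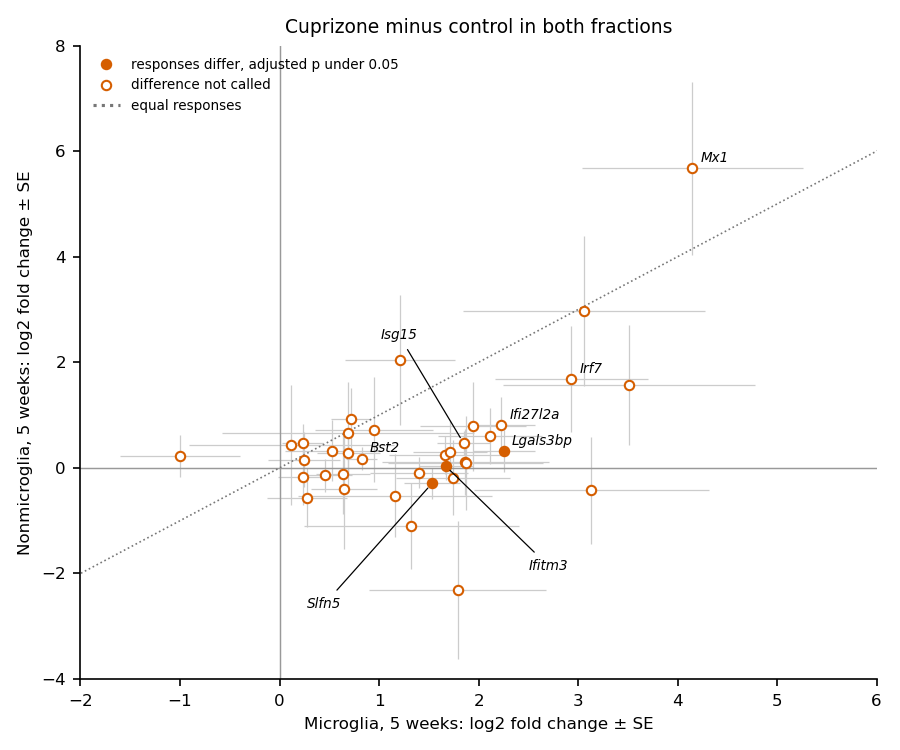
Cuprizone minus control difference at 5 weeks in microglia (horizontal axis) against nonmicroglia (vertical axis), log2 fold change ± SE, for members tested in both fractions; filled points are genes whose response differed between the fractions in the test. Filled are Lgals3bp, Slfn5 and Ifitm3, which lie at 2.25, 1.53 and 1.67 in microglia and near 0 in nonmicroglia.

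Among the 9 microglia libraries of the 5-week cuprizone groups, mice differed in how many members they were highest for. Het animal 1106 had the highest summed level, 4550.1 CPM, and was the highest library for 14 of 40 members. WT animal 9144 (3747 CPM) was highest for 9 and KO animal 310 (3213 CPM) for 8. Het animal 1108 (2619 CPM) was highest for none, and the lowest summed level, 2328 CPM, was that of WT animal 743. WT animal 2474, a male, stood above KO animal 310 in summed level (3575 CPM) and was highest for 1 member. The mice 1106, 9144 and 310 were of 3 different genotypes and female, in groups that each held only 1 male. The order of mice was not the same for every gene: Stat2 was highest in WT animal 9144 and Bst2 lowest in KO animal 310. Control microglia were uneven too. KO animal 1104 was highest for 10 members and WT animal 309 for 9 at 5 weeks, and Het animal 7674 for 11 at 12 weeks. How often each library was highest over all genes was not computed.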

How the data were processed

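The authors deposited one table of raw tag counts per gene for all 74 libraries, and those counts are the unit used here. Libraries were made with the QuantSeq 3' FWD kit in its low-input form, per the labels' protocols. The submitters' processing notes name the GRCm38.p6 build, the aligner STAR, FastQC 0.11.5 and MultiQC for quality control, and R 3.4.3. Which program counted the tags, with what strand setting and with or without molecular identifiers, is not given in the sources used here, so 3' tags of overlapping genes and near-identical relatives (Ifit3 and Ifit3b, the Oas1a, Ifi204, Trim30a, schlafen and guanylate-binding families) may be split between them. A tag counts a transcript's 3' end, and tags need not be independent molecules.

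From the counts, genes passing edgeR's filterByExpr (minimum count 10) were scaled by TMM and tested with edgeR 4.0.16 (quasi-likelihood, robust; R 4.3.3) in a fit of 12 group means plus sex per fraction, or 24 group means for both fractions. Contrasts weighted the genotypes equally, p-values were two-sided and adjusted by Benjamini-Hochberg over all genes tested, and SE was taken from the fold change and its F statistic. Each library is a separate mouse within a fraction. The same mouse gave both fractions, so animal numbers pair the fractions by origin; the correlation of paired deviations ran -0.0950 to 0.202 with a median of 0.0196 (over 0.1 in 9 of 37 mice, 4394 genes). No 2 libraries agreed within sampling noise (lowest chi-square per degree of freedom 8.56 over 2701 pairs). The fits were tested on simulated counts with known changes.

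Members and lists were chosen with earlier results of these data known. Values are given in full for at most 10 called members per comparison, those of largest change, levels in every group for a panel of 12 members, and up to 4 called genes per pathway list. The DNA sensor cGAS and its adaptor are listed under their older symbols Mb21d1 and Tmem173. Alternatives were DESeq2 1.42.0 (size factors, and its Wald test), limma 3.58.1 voom with quality weights, no filter, no sex term, each library left out, and the animal as a block. Chosen after seeing the data were leaving out libraries beyond 30 on the first principal component and thinning all libraries to the lowest total, 1043961 counts.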

Additional observations from a re-analysis of the deposited data

Results flagged for a closer look

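Levels of the 12 panel genes and the summed level were searched for single libraries far from the rest of their group by Dixon's test at 95%. This made 156 tests, each of 1 level in 1 set of libraries. Such a gap was found in 17 tests, always at the high end. Chance gives about 1 in 20 for normally distributed values, which these levels need not be. Some sets also share libraries, so the 17 are not read as an excess. Sets here are the libraries of a diet and time over the 3 genotypes, unless a genotype is named.

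In microglia on cuprizone, Ifitm3 was at 395 CPM in Het animal 1106 and Usp18 at 18.8 CPM in KO animal 310 at 5 weeks, and Zbp1 was at 80.1 CPM in WT animal 3917 at 12 weeks. In microglia on control chow at 5 weeks, Ifi27l2a was at 81.0 CPM in KO animal 1104, Zbp1 at 36.8 CPM in WT animal 309 and Gbp2 at 29.5 CPM in Het animal 9546. At 12 weeks on control chow, Zbp1 was at 34.5 CPM in WT animal 9145, and Usp18 at 14.9 CPM in Het animal 9463, which stood apart both among all controls and among the 4 Het controls.

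In nonmicroglia on cuprizone, Ifit3 was at 74.5 CPM in KO animal 310 and Gbp2 at 29.97 CPM in WT animal 9144 at 5 weeks, and Isg15 was at 185 CPM in WT animal 3917 at 12 weeks. On control chow at 5 weeks, Ifi27l2a was at 42.7 CPM in WT animal 309 and Oasl2 at 37.1 CPM in Het animal 9546. Among the 4 Het controls at 12 weeks, Irf7 was at 11.3 CPM in animal 944, and Usp18 at 5.34 CPM and Gbp2 at 8.31 CPM in animal 7674.

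The 5-week response to cuprizone differed between microglia and nonmicroglia, by the test of the difference itself, for Ifitm3 (1.61 on the log2 scale), Lgals3bp (1.90) and Slfn5 (1.82).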

How the results depend on the processing

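None of 84 called member differences changed sign under the alternatives run, and differences of members not called were not recomputed there one by one. The median over members changed sign under some alternative in 17 of 41 comparisons, none of which had a called member. With groups at 0 held at 3 counts, 6 of 105 differences changed sign, none of them called: Ifi44 at 12 weeks (-0.63 in place of 0.66, and in WT mice -1.07 in place of 3.05), Ifi44 in the KO minus WT response at 12 weeks (0.49 in place of -4.07), Cmpk2 and Oasl1 for 12 minus 5 weeks on control chow (0.52 in place of -0.79, and 0.65 in place of -0.33) and Cmpk2 in the change of response (-0.86 in place of 0.53). The number of members called at 5 weeks in microglia over the 3 genotypes (13) stayed between 9 and 15 under the other tools, scalings, filters and thinning and without the libraries that stand apart, and between 8 and 13 with single libraries left out. Some counts moved by more than 1.5 times. They are given without the share of all genes under the same alternative, and show only how member calls moved. Within WT mice at 5 weeks (0 called) they were 3 with no filter, 4 with the DESeq2 Wald test, 4 with limma voom and 1 without the sex term, and 0 to 2 with libraries left out. Within Het mice (4) they were 7 with no filter and 11 with DESeq2, and 0 to 5 with libraries left out. Within KO mice (0) they were 3 with no filter and 2 with DESeq2.

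At 12 weeks over the 3 genotypes (6) the count was 3 with limma voom, 2 without the libraries that stand apart on the first component, and 3 to 7 with single libraries left out. It was 2 with DESeq2 in WT mice (0), 2 without the libraries that stand apart in Het mice (4, and 3 to 4 with libraries left out) and 1 with no filter in KO mice (0). For 12 minus 5 weeks on cuprizone (2) it was 1 without the libraries that stand apart and 0 to 3 with libraries left out. The KO minus WT difference in response at 12 weeks (0) was 1 with no filter. DESeq2's size factors moved the median of that difference over all genes by 0.11 on the log2 scale. In nonmicroglia KO mice at 12 weeks (0) DESeq2 called 1, lower, and 3 nonmicroglia results (WT diet at 12 weeks, KO minus WT on control chow and KO minus WT response at 12 weeks, 0 each) were 0 to 1 with libraries left out. The cause of these shifts was not tested.

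With the mouse as a replicate block, pairing the fractions, microglia differed from nonmicroglia in 24 members on control chow (26 without it) and 22 on cuprizone at 5 weeks (22), and the 5-week response differed in 4 (3). Left-out libraries gave 22 to 26, 19 to 23 and 1 to 4. Shares of all genes under these alternatives are not given here, so the counts show only how member calls moved.

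With 3 mice per group and levels near a few counts for genes such as Mx1, Oas1a and Gbp2, a difference within a genotype is detectable only when large.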
